A study of Mus musculus with 6 samples.

Results

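The proteasome genes of mouse colon regulatory T cells (Tregs) were described here by their transcript levels in TNBS colitis. They were chosen by symbol, as every row whose symbol begins with Psm, a letter from a to g and a digit, which gave 50 of the 24537 rows of the table. Psmb8, Psmb9 and Psmb10, the catalytic subunits of the immunoproteasome, were set apart within them. One match, Psmc3ip, encodes a partner of the recombinases in meiosis and is not a proteasome gene.

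The libraries were 3 labelled REV-ERB KO and 3 labelled REV-ERB WT, all from Tregs of the colon of mice in which TNBS, a hapten, had been used to provoke colitis. In both groups, per the labels' protocols, 150 µl of 1% TNBS went on the skin and, 7 days later, 100 µl of 2.5% TNBS into the rectum. Libraries were made from 1.3 µg of Trizol-extracted RNA with a stranded poly(A) kit. The sources used here do not give the allele, the exons removed, the cells in which they were removed, the age of the mice or the way the Tregs were sorted.

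The proteasome is the protease that degrades ubiquitin-tagged proteins. Its barrel-shaped core is a stack of rings of alpha and beta subunits, and the proteolytic sites lie on the beta subunits Psmb5, Psmb6 and Psmb7, facing the inside. A regulatory particle at the end of the barrel, with a ring of ATPases and a lid of non-ATPase subunits, binds, unfolds and feeds in the substrate. In lymphocytes and in cells that meet interferon-gamma, Psmb8, Psmb9 and Psmb10 take the places of Psmb5, Psmb6 and Psmb7 in newly built cores, which changes the peptides made for MHC class I.

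The reads recovered from the values numbered 12641850 to 15890630 per KO-labelled library and 9794480 to 12122575 per WT-labelled library. Nr1d1, which encodes REV-ERBα, stood at 169.2, 154.3 and 141.4 TPM in the KO-labelled libraries and at 66.3, 104.0 and 88.2 TPM in the WT-labelled ones. That is opposite to a loss of the transcript, so all directions below follow the labels as given. All 8 T cell and Treg markers were detected in every library, and all had differences below 0, KO label minus WT label (median -0.27 on the log2 scale). In 5 of them every KO-labelled library lay below every WT-labelled one, where 10.4% of all genes did so. Their summed level was 3572 to 3959 TPM in the KO-labelled libraries and 4810 to 5397 TPM in the WT-labelled ones. Foxp3, the factor that defines Tregs, stood at 200.6 ± 32.1 TPM in the KO-labelled libraries and 568.4 ± 107.8 TPM in the WT-labelled ones (SD, n = 3 each). All 18 epithelial markers were detected and had differences above 0 (median 0.86 on the log2 scale), with sums of 3370 to 6669 TPM in the KO-labelled libraries and 2335 to 3335 TPM in the WT-labelled ones. Among other cell types, 8 of 9 myeloid markers had differences above 0 (median 0.2). Their sums were 658.4 to 1185 TPM in the KO-labelled libraries and 602.5 to 989.2 TPM in the WT-labelled ones. Of 5 B cell markers 2 had differences above 0 (median -0.04). The 4 tested neutrophil markers had differences above 0 (median 1.73), with sums of 7.445 to 41.97 TPM in the KO-labelled libraries and 3.788 to 10.58 TPM in the WT-labelled ones. All 8 fibroblast and muscle markers were above 0 (median 0.28), with sums of 279.0 to 527.8 TPM in the KO-labelled libraries and 210.7 to 489.8 TPM in the WT-labelled ones. Red cell markers were at 0 in all KO-labelled libraries and summed to 10.9 to 64.35 TPM in the WT-labelled ones. The nuclear transcripts Malat1 and Neat1 together made up 441.7 to 489.6 TPM in the KO-labelled libraries and 785.6 to 1006 TPM in the WT-labelled ones. In bulk RNA, fewer cells of a type and less RNA per cell cannot be told apart.

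Proteasome transcripts differed little between the groups. Of the 50 rows, 48 reached a TPM (reads per length of transcript, scaled to library size) of 1 in 3 or more libraries and were tested. None of the 48 passed the threshold of 0.05 over all genes in either direction (limma, smallest adjusted p = 0.2072 for Psmb5), and neither did any of the 13211 genes tested (0% called in each direction). Without adjustment, 4 members were higher and 1 was lower at p under 0.05, where 7.8% of all genes were higher and 7.86% lower. Voom on the recovered reads also called 0 genes. The difference in log2(TPM + 1), KO label minus WT label, was above 0 for 39 of the 48 members, where it was above 0 for 49.5% of all genes tested, and below 0 for 9, where it was so for 50.5%. Its median was 0.10 for the members and 0.00 for all genes, and it ran from -0.26 (Psme2b) to 0.44 (Psmb10). In 8 members every library labelled KO lay above every library labelled WT, where 10.6% of all genes did so. In 1 member every library labelled KO lay below, where 10.4% of all genes did so.

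The library labelled WT 1 lay within the range of the libraries labelled KO in the level of its median proteasome gene. Relative to each gene's mean, the median member stood at -0.01, 0.05 and 0.16 on the log2 scale in the KO-labelled libraries 1, 2 and 3. It stood at 0.05, -0.13 and -0.07 in WT-labelled libraries 1, 2 and 3, so the groups overlapped. On the log2 scale, epithelial markers averaged 7.07, 7.67 and 6.71 in the KO-labelled libraries and 6.66, 5.99 and 6.35 in the WT-labelled ones, so WT 1 was also the highest of its group there. Every KO-labelled library was above every WT-labelled one in this average. In a fit that takes it as a covariate, the label and the epithelial level therefore cannot be fully told apart. The part of RNA of these other cells, nuclear transcripts and depth in the proteasome values was not tested. The median residual SD within the groups, on the log2 scale, was 0.131 for the members and 0.220 for all genes tested.

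**Figure D1:**
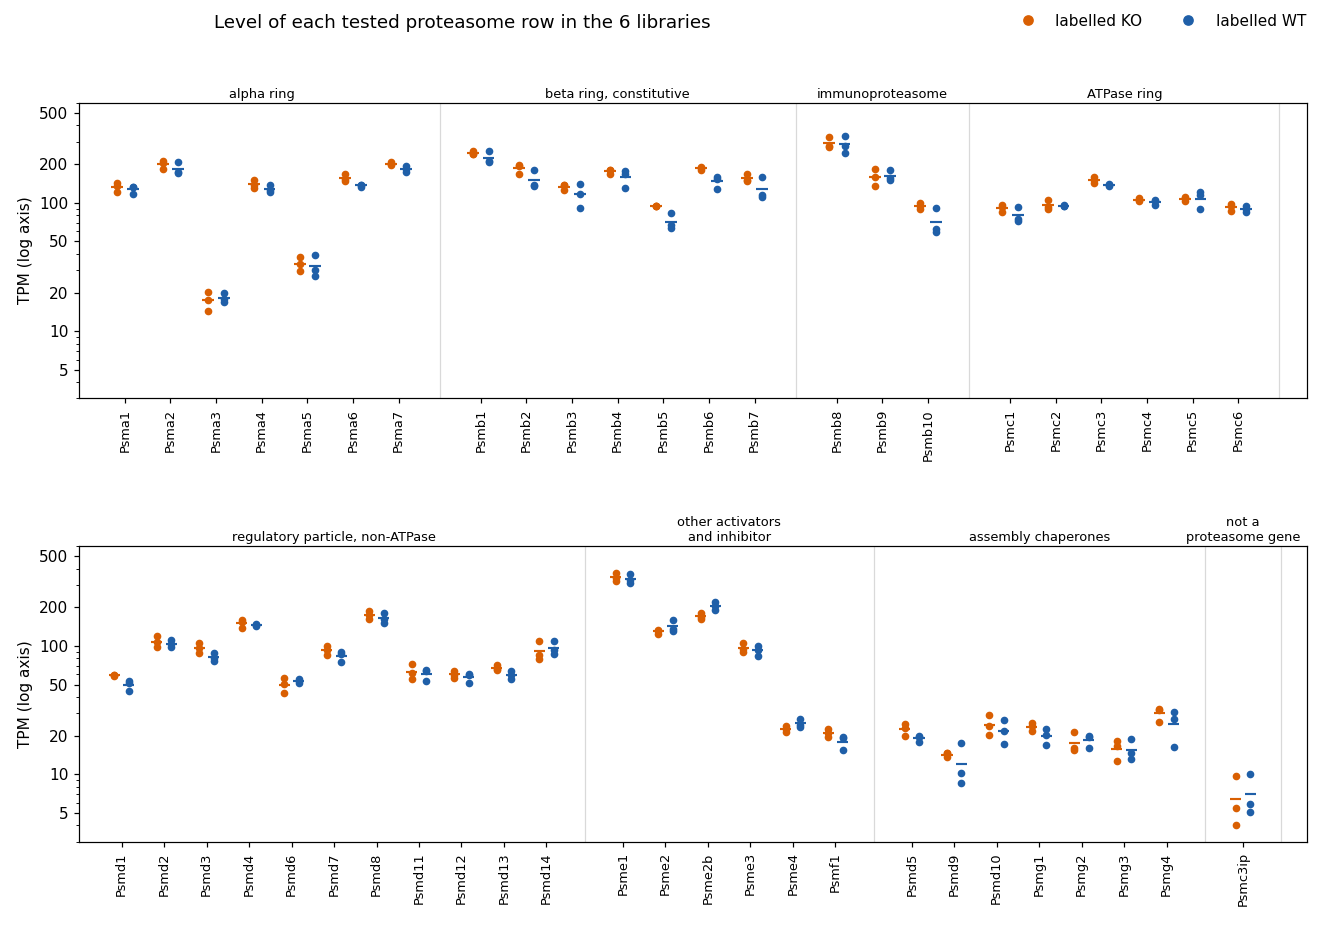
TPM (log axis) of the 48 tested rows in each of the 6 libraries, labelled KO left of labelled WT, with points for libraries and bars for group means. Levels differ far more between genes, from Psmc3ip to Psme1, than between the groups, and Psma8 and Psmb11, which were not tested, are left out.

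The beta ring held the members with the largest differences. All 7 constitutive beta subunits had differences above 0, with a median of 0.28 and a range of 0.13 to 0.41. With the epithelial level as a covariate this median was 0.123, and 6 of the 7 were above 0, Psmb3 being at -0.05. In the 2 members with the smallest p of all, Psmb5 and Psmb6, the groups did not overlap. The 250 bases before the start of each gene are shown because Psmb5 and Psmb6 carry a match there to the core of the antioxidant response element, the site at which the factors Nfe2l1 and Nfe2l2 bind. The capitals mark that match, TGACNNNGC on either strand, in the RefSeq sequence of GRCm38.p6, at chr14:54617996-54618245 on the minus strand for Psmb5 and chr11:70525107-70525356 on the plus strand for Psmb6.
Psmb5: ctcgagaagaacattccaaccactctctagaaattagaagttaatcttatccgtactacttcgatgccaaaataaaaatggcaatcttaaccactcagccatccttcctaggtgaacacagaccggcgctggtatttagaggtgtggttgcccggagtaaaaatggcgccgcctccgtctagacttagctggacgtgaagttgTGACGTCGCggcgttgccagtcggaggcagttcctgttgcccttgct
Psmb6: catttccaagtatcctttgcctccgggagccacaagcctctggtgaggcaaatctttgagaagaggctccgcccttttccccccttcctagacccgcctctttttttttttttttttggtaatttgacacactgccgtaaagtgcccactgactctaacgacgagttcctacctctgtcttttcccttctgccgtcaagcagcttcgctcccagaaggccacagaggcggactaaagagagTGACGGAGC
Among the 42 members with a promoter sequence, 5 (11.9%) held this motif in the window, and so did 11.5% of the 27025 genes in the sequence table. The others were Psmc6, Psmd12 and Psmd9, with log2 differences of 0.05, 0.07 and 0.27, Psmd9 being at -0.10 with the epithelial covariate. No promoter sequence was at hand for Psmb7. Binding at these matches was not tested.

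Psmb5 (NM_011186, mm10 chromosome 14, 54614120 to 54617995, minus strand), the chymotrypsin-like subunit, stood at 94.3, 93.7 and 95.1 TPM in the KO-labelled libraries. In the WT-labelled libraries it stood at 83.3, 63.4 and 67.2 TPM. The libraries labelled KO were nearly level with each other, and WT 1 was the closest to them. This gave a log2 difference of 0.41 (SE 0.119, 95% interval 0.13 to 0.69, limma adjusted p = 0.2072), or 1.32-fold. It passed the threshold with array weights (0.453, limma adjusted p = 0.04785), where 225 of the 13211 genes tested were called higher and 357 lower. With the epithelial covariate it was 0.271 (limma adjusted p = 0.984). The Psmb5 row is uncertain, because 57.1% of the words of 50 bases in its transcript also occur in transcripts of other genes, most of them in Gm3375, and because its row overlaps Mir686 by 109 bases on the same strand. Psmb6 (NM_008946, chromosome 11, 70525357 to 70527858, plus strand), the caspase-like subunit, stood at 185.6, 179.9 and 190.0 TPM in the KO-labelled libraries and 158.9, 127.8 and 154.1 TPM in the WT-labelled ones. Every library labelled KO was higher than every library labelled WT (log2 difference 0.34, SE 0.108, limma adjusted p = 0.226). In Psmb6, 2.67% of the words of 50 bases were shared with another gene.

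Psmb7, the trypsin-like subunit, stood at 146.9, 149.4 and 167.3 TPM in the KO-labelled libraries and 159.0, 115.1 and 111.0 TPM in the WT-labelled ones. Its groups overlapped through WT 1 (0.28 on the log2 scale, 95% interval -0.06 to 0.63). Psmb2, a beta subunit with no active site, showed the same arrangement, with 167.8, 196.0 and 192.5 TPM in the KO-labelled libraries and 179.3, 136.8 and 135.9 TPM in the WT-labelled ones. Without WT 1 the difference of Psmb2 was 0.44, against 0.31 with all libraries. Psmb1, Psmb3 and Psmb4, which have no active site either, had differences of 0.13, 0.21 and 0.17, and their groups overlapped. Of the words of 50 bases in Psmb3, 55.8% also occur in other genes. Psmb1 was the highest of the ring, at 244.6 ± 8.77 TPM in the KO-labelled libraries and 223.7 ± 25.2 TPM in the WT-labelled ones. Psmb5 was the lowest, and the mean level of Psmb1 over all libraries was 2.83-fold that of Psmb5. Psmb11, the beta subunit of thymic epithelium, had 0 reads in every library.

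**Figure D2:**
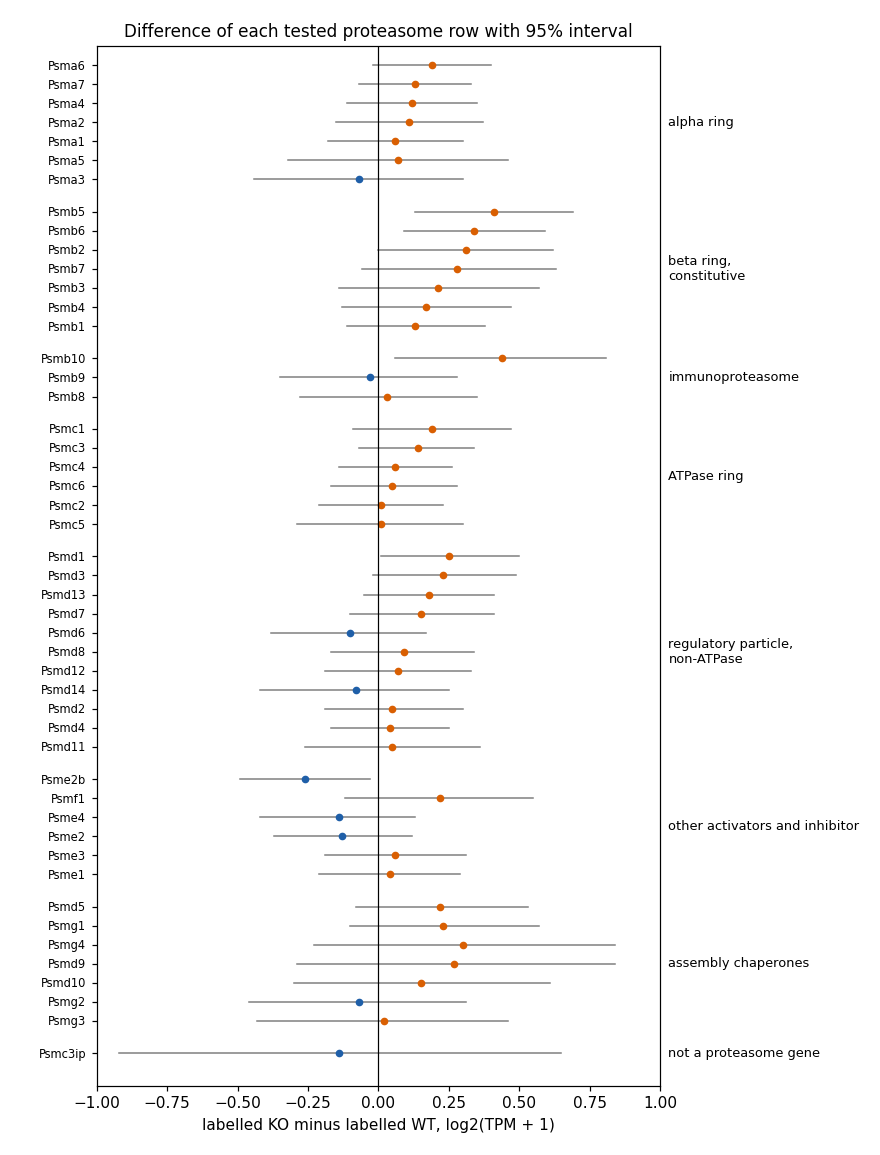
Difference between the groups in log2(TPM + 1), KO label minus WT label, for each of the 48 tested rows, as points with 95% intervals from limma, without adjustment for the number of genes. All 7 constitutive beta subunits lie right of 0 with no covariate, and the intervals of 5 members (Psmb5, Psmb6, Psmb10, Psmd1 and Psme2b) are clear of 0. An interval clear of 0 matches an unadjusted p under 0.05 (limma), at which 7.8% of all genes were higher and 7.86% lower.

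The immunoproteasome subunits were abundant in both groups and did not differ in one direction. The promoter window of Psmb10 is shown for the match it holds, in capitals, to AGGTCA, read on the opposite strand. This hexamer is only a part of the sites of REV-ERB and ROR receptors. The sequence is RefSeq's in GRCm38.p6, at chr8:105938393-105938642 on the minus strand.
Psmb10: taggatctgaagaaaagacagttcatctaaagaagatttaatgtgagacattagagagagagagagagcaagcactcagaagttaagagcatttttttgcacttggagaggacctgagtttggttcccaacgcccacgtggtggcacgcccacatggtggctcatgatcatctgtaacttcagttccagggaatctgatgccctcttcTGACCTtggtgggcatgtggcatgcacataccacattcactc
AGGTCA was held by 10 of the 42 members (23.8%) and 15.8% of all genes. Besides Psmb10 these were Psma3, Psma6, Psma7, Psmc2, Psmc3ip, Psmc4, Psmc5, Psmd2 and Psmd6. Their log2 differences ran from -0.14 (Psmc3ip) to 0.19 (Psma6). A match to the hexamer does not show binding, which was not tested. The interferon-stimulated element, here GAAA followed after any 2 bases by GAAA, was held by 3 members (7.14%) and 3.46% of all genes. Both strands were searched for each motif, and no match shown overlaps another. Psmb8 and Psmb9 held none of the motifs in this window.

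Psmb8 (NM_010724, chromosome 17, 34198195 to 34201454, plus strand), which takes the place of Psmb5, stood at 270.0, 275.4 and 325.3 TPM in the KO-labelled libraries and 333.4, 245.9 and 276.2 TPM in the WT-labelled ones. The highest and the lowest of the 6 values both belonged to the WT label. This gave a log2 difference of 0.03 (SE 0.137, 95% interval -0.28 to 0.35, limma adjusted p = 0.9266). Psmb9 (NM_013585, chromosome 17, 34182099 to 34187330, minus strand), which takes the place of Psmb6 and lies near Psmb8 in the MHC region, stood at 135.7, 157.8 and 184.4 TPM in the KO-labelled libraries. In the WT-labelled libraries it stood at 181.5, 156.3 and 149.3 TPM, within the range of the other group (-0.03, 95% interval -0.35 to 0.28). The signs of both turned when single libraries were left out.

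Psmb10 (NM_013640, chromosome 8, 105935728 to 105938392, minus strand), which takes the place of Psmb7, had the largest difference of all members. It stood at 89.9, 99.8 and 93.8 TPM in the KO-labelled libraries and 90.4, 59.4 and 62.7 TPM in the WT-labelled ones. WT 1 lay within the values labelled KO, and WT 2 and WT 3 lay well below. The difference was 0.44 (SE 0.162, limma adjusted p = 0.2684). It was 0.62 without WT 1 and 0.14 with the epithelial covariate.

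**Figure D3:**
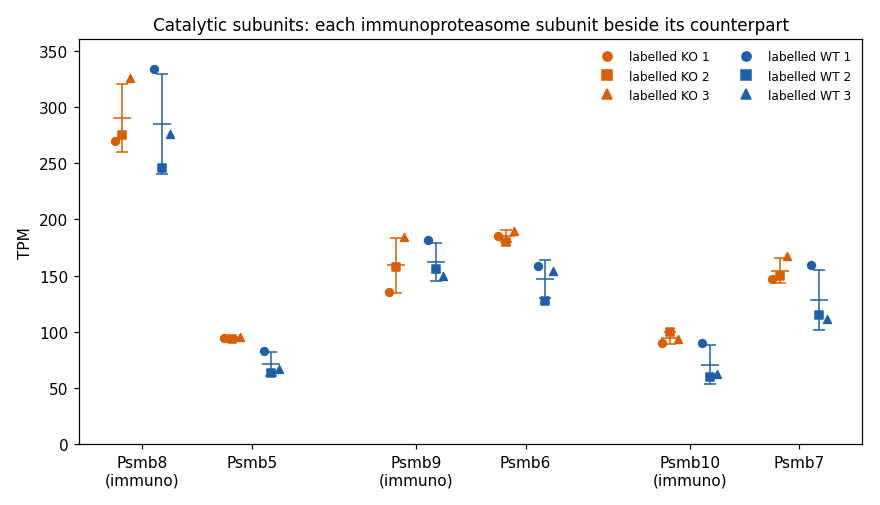
TPM of the 3 immunoproteasome subunits, each beside the constitutive subunit it replaces, with a symbol for each library and bars for mean and SD (n = 3 per group, labelled KO left of labelled WT). Psmb5 and Psmb6 are higher in all libraries labelled KO, while Psmb8 and Psmb9 overlap between the groups.

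The balance between the 2 kinds of catalytic subunit was also taken within each library, where scaling cancels. The ratio of Psmb8 to Psmb5 was 2.86, 2.94 and 3.42 in the KO-labelled libraries and 4.0, 3.88 and 4.11 in the WT-labelled ones, without overlap (-0.38 on the log2 scale). An exact permutation test gave p = 0.1, its minimum with 3 libraries a group, and 0.3 when adjusted over the 3 ratios. Psmb5 is the row with shared sequence. The ratio of Psmb9 to Psmb6 was 0.731, 0.877 and 0.971 in the KO-labelled libraries and 1.14, 1.22 and 0.968 in the WT-labelled ones, where KO 3 and WT 3 nearly coincided (-0.37, exact permutation p = 0.2, adjusted 0.3). The ratio of Psmb10 to Psmb7 had the opposite sign, with 0.612, 0.668 and 0.561 in the KO-labelled libraries and 0.569, 0.516 and 0.565 in the WT-labelled ones (0.16, exact permutation p = 0.3, adjusted 0.3), and its sign turned with the epithelial covariate (-0.044). Of the summed TPM of the 6 catalytic subunits, Psmb8, Psmb9 and Psmb10 made up 53.7%, 55.8% and 57.2% in the KO-labelled libraries and 60.1%, 60.1% and 59.5% in the WT-labelled ones. The summed level of the 3 immunoproteasome subunits was 544.1 ± 54.8 TPM in the KO-labelled libraries and 518.3 ± 76.4 TPM in the WT-labelled ones. That of Psmb5, Psmb6 and Psmb7 was 434.1 ± 15.99 TPM in the KO-labelled libraries and 346.6 ± 49.0 TPM in the WT-labelled ones (SD, n = 3 each).

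**Figure D4:**
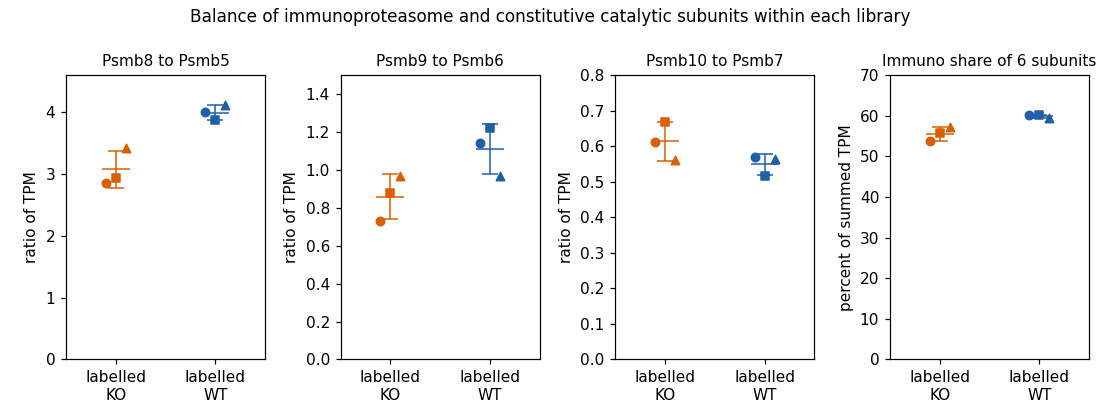
Ratio of TPM of each immunoproteasome subunit to the subunit it replaces, and the share of the 3 immunoproteasome subunits in the summed TPM of all 6, by library with mean and SD (n = 3 per group, axes start at 0). The first ratio and the share are lower in all libraries labelled KO, while the ratio of Psmb10 to Psmb7 overlaps between the groups.

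In the alpha ring, whose subunits form the gate of the core, 6 of 7 tested members had differences above 0 (median 0.11), and 4 did with the epithelial covariate. Psma6 stood at 148.5, 152.7 and 167.1 TPM in the KO-labelled libraries and 138.7, 137.1 and 133.1 TPM in the WT-labelled ones, without overlap (0.19, SE 0.0898, limma adjusted p = 0.3475). Its row overlaps Mir1198 on the same strand over its whole extent, 19635 bases. Psma7 was the highest of the ring and also did not overlap, at 201.5 ± 4.78 TPM in the KO-labelled libraries and 184.4 ± 9.56 TPM in the WT-labelled ones. Psma3 was the lowest tested, at 17.4 ± 2.996 TPM in the KO-labelled libraries and 18.1 ± 1.55 TPM in the WT-labelled ones, so that Psma7 had 10.9-fold the level of Psma3 over all libraries. The subunits of a ring are present in equal number in the particle, so these are differences between transcripts as tabulated. The row of Psma3 is 2361 bases long, the longest among Psma1 to Psma7, and 22% of its words of 50 bases also occur in other genes. Psma3 had 273 to 506 reads a library, where Psma1 had 1073 to 1864. Psma5, the next lowest, shares 54.5% of its words of 50 bases with other genes. Psma8, the alpha subunit of the testis, had at most 2 reads in a library.

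The regulatory particle was nearly level. All 6 ATPases, Psmc1 to Psmc6, which unfold the substrate, had differences above 0, but the median was 0.06 and the largest was 0.19 (Psmc1). With the epithelial covariate 5 of the 6 were above 0, and Psmc1 was at 0.02. Psmc3, the highest of them, stood at 142.7, 149.8 and 158.8 TPM in the KO-labelled libraries and 139.3, 136.6 and 134.3 TPM in the WT-labelled ones, without overlap (0.14, limma adjusted p = 0.4844). Psmc1, the lowest, stood at 91.3 ± 5.997 TPM in the KO-labelled libraries and 80.3 ± 11.4 TPM in the WT-labelled ones. Of its words of 50 bases, 17.6% also occur in other genes. Psmc2 was at 89.9, 93.0 and 104.7 TPM in the KO-labelled libraries and 95.5, 94.97 and 94.5 TPM in the WT-labelled ones (0.01, 95% interval -0.21 to 0.23).

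Among the 11 non-ATPase subunits, 9 differences were above 0, with a median of 0.07. Psmd1, a large scaffold that docks ubiquitin receptors, stood at 58.2, 59.6 and 59.7 TPM in the KO-labelled libraries and 53.3, 44.3 and 51.6 TPM in the WT-labelled ones. It did not overlap between the groups (0.25, SE 0.106, limma adjusted p = 0.3119), and its row overlaps Htr2b on the opposite strand, so reads of the 2 may mix if strand was not used. Psmd13, a lid subunit, did not overlap either, at 67.5 ± 3.10 TPM in the KO-labelled libraries and 59.4 ± 4.10 TPM in the WT-labelled ones. Psmd4, which binds ubiquitin chains, was level at 150.5 ± 10.53 TPM in the KO-labelled libraries and 146.2 ± 3.25 TPM in the WT-labelled ones. Psmd14, the enzyme that cuts ubiquitin from the substrate, stood at 79.7, 85.1 and 109.1 TPM in the KO-labelled libraries and 93.8, 86.5 and 108.8 TPM in the WT-labelled ones (-0.08, 95% interval -0.42 to 0.25). Psmd6, the lowest of these subunits, stood at 50.01 ± 6.52 TPM in the KO-labelled libraries and 53.6 ± 1.99 TPM in the WT-labelled ones. Psmd8, the highest, stood at 174.7 ± 13.8 TPM in the KO-labelled libraries and 164.5 ± 15.9 TPM in the WT-labelled ones.

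Among the activators other than the regulatory particle and the inhibitor, 3 of 6 differences were above 0, with a median of -0.04, and Psme2b had the lowest difference of all members. Psme1 and Psme2 form the interferon-induced cap that opens the core without ATP. Psme1 was the most abundant of all members, at 335.9, 320.2 and 370.9 TPM in the KO-labelled libraries and 365.1, 308.3 and 325.8 TPM in the WT-labelled ones (0.04, 95% interval -0.21 to 0.29). Of its words of 50 bases, 14.1% also occur in other genes. Psme2 stood at 133.2, 123.8 and 131.9 TPM in the KO-labelled libraries and 159.2, 130.9 and 135.6 TPM in the WT-labelled ones, with overlap (-0.13, limma adjusted p = 0.5913). Psme2b, a near copy of Psme2 (NM_001281472, chromosome 11, 48945352 to 48946410, minus strand), stood at 161.1, 169.3 and 181.9 TPM in the KO-labelled libraries. In the WT-labelled libraries it stood at 221.7, 203.6 and 190.2 TPM, so that it was the member in which every library labelled KO was lower. The difference was -0.26 (SE 0.0996, limma adjusted p = 0.2746). Of the words of 50 bases in its transcript 68.7% also occur in Psme2, so the split of reads between the 2 rows is uncertain. Its row also overlaps 9930111J21Rik1 on the same strand.

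Psme3, which forms a nuclear cap, stood at 89.2, 94.2 and 105.0 TPM in the KO-labelled libraries and 84.1, 99.3 and 93.5 TPM in the WT-labelled ones (0.06). Psme4, a single-chain activator known for its binding to acetylated histones, stood at 21.4, 22.5 and 23.7 TPM in the KO-labelled libraries and 23.6, 24.4 and 27.0 TPM in the WT-labelled ones. Its groups overlapped only by the closeness of KO 3 and WT 1 (-0.14, limma adjusted p = 0.5895). Psmf1, an inhibitor of the core, was the lowest of this group, at 19.4, 20.9 and 22.7 TPM in the KO-labelled libraries and 19.5, 19.2 and 15.4 TPM in the WT-labelled ones (0.22, limma adjusted p = 0.4946).

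The assembly chaperones, Psmg1 to Psmg4 for the core and Psmd5, Psmd9 and Psmd10 for the regulatory particle, were less abundant than the subunits they help to join. Their median level over all libraries was 20.9 TPM, where it was 133.7 TPM for the alpha ring and 166.0 TPM for the constitutive beta ring. Of the 7 differences 6 were above 0, with a median of 0.22. With the epithelial covariate Psmd9 and Psmg3 were below 0 and Psmg2 above it. Psmd5 stood at 22.6 ± 2.39 TPM in the KO-labelled libraries and 19.1 ± 1.028 TPM in the WT-labelled ones, without overlap by a narrow margin (0.22, limma adjusted p = 0.4391). Psmg4 was the highest, at 29.8 ± 3.75 TPM in the KO-labelled libraries and 24.7 ± 7.52 TPM in the WT-labelled ones, and Psmd9 the lowest, at 14.2 ± 0.568 TPM in the KO-labelled libraries and 12.1 ± 4.78 TPM in the WT-labelled ones. Psmg2 stood at 17.6 ± 3.11 TPM in the KO-labelled libraries and 18.5 ± 2.09 TPM in the WT-labelled ones (-0.07). Psmc3ip, the row that is no proteasome gene, stood at 6.43 ± 2.96 TPM in the KO-labelled libraries and 7.04 ± 2.70 TPM in the WT-labelled ones.

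Proteasome genes whose symbols the pattern does not match differed by about as much as the members. Of 23 such genes of the regulatory particle, its cofactors and its transcriptional control, 16 had differences above 0, with a median of 0.09. None passed the threshold (limma, smallest adjusted p = 0.3268). At an unadjusted p under 0.05 (limma) there were 0, where 7.8% of all genes were higher and 7.86% lower. Uchl5, a deubiquitinase of the regulatory particle, stood at 33.3, 34.3 and 42.3 TPM in the KO-labelled libraries and 32.3, 25.2 and 29.5 TPM in the WT-labelled ones, without overlap (0.33). Adrm1, the subunit that holds Uchl5, stood at 31.1, 34.3 and 31.2 TPM in the KO-labelled libraries and 31.1, 27.3 and 24.7 TPM in the WT-labelled ones (0.22, limma adjusted p = 0.4366). Nfe2l1, the factor that raises proteasome genes when the proteasome is inhibited, stood at 63.7, 70.1 and 58.1 TPM in the KO-labelled libraries and 51.7, 54.4 and 58.3 TPM in the WT-labelled ones (0.22, limma adjusted p = 0.3824).

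Genes of class I presentation and interferon-gamma signalling, the pathway that induces Psmb8, Psmb9 and Psmb10, differed in both directions. Of 19 genes 9 differences were above 0 and 10 below, with a median of -0.06, and none passed the threshold (limma). At an unadjusted p under 0.05 (limma), 2 were higher and 2 lower, where 7.8% of all genes were higher and 7.86% lower. Nlrc5, the transactivator of class I genes, stood at 52.9, 51.8 and 69.2 TPM in the KO-labelled libraries and 77.7, 83.8 and 77.2 TPM in the WT-labelled ones, without overlap (-0.46, SE 0.131, limma adjusted p = 0.1963). It was -0.20 with the epithelial covariate and passed with array weights (adjusted p = 0.03962). Irf1, an interferon-induced activator, stood at 197.7, 209.3 and 190.2 TPM in the KO-labelled libraries and 266.5, 244.3 and 226.9 TPM in the WT-labelled ones, also without overlap (-0.30, limma adjusted p = 0.2293). Ifngr2, a chain of the interferon-gamma receptor, was higher, at 46.3 ± 6.58 TPM in the KO-labelled libraries and 33.5 ± 4.57 TPM in the WT-labelled ones (0.45, limma adjusted p = 0.2305). The peptide transporter subunits Tap1 and Tap2, neighbours of Psmb9 and Psmb8, were close to level, with differences of -0.06 and -0.11.

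**Figure D5:**
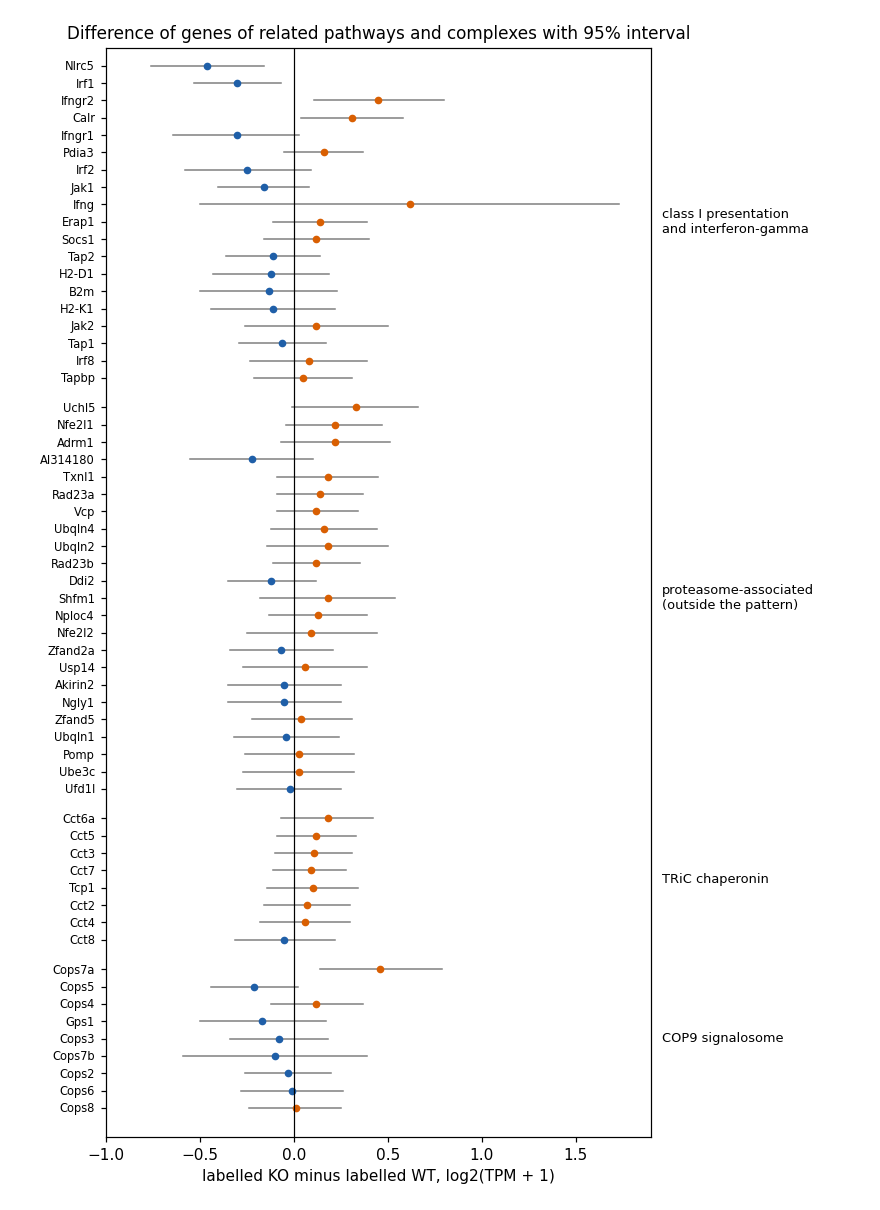
Difference between the groups in log2(TPM + 1), KO label minus WT label, with 95% intervals from limma, not adjusted for the number of genes, for 4 lists of related genes. The intervals of Nlrc5 and Irf1 lie left of 0 and those of Ifngr2, Calr and Cops7a right of it, and the intervals of the other genes span 0.

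Other large complexes gave a scale for these sizes. The TRiC chaperonin, the ring that folds actin and tubulin, had 7 of 8 differences above 0 and a median of 0.09, close to the 0.10 of the proteasome members. Its 3 members with the smallest p, Cct6a, Cct5 and Cct3, had differences of 0.18, 0.12 and 0.11, and Cct6a stood at 126.1 ± 12.8 TPM in the KO-labelled libraries and 111.3 ± 4.91 TPM in the WT-labelled ones. The COP9 signalosome, whose subunits are related to those of the proteasome lid, had 3 of 9 above 0 and a median of -0.03. Its member with the smallest p, Cops7a, stood at 41.8 ± 4.53 TPM in the KO-labelled libraries and 30.1 ± 4.09 TPM in the WT-labelled ones (0.46, limma adjusted p = 0.2125). Cops5, the subunit that removes Nedd8 from cullins, stood at 39.8, 40.7 and 37.1 TPM in the KO-labelled libraries and 46.8, 45.2 and 44.5 TPM in the WT-labelled ones, without overlap (-0.21), and Cops4 had a difference of 0.12. None of the genes of these 2 complexes passed the threshold (limma).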

How the data were processed

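RNA-seq libraries of colon Tregs from mice with TNBS colitis were compared, 3 labelled KO with 3 labelled WT. The authors deposited TPM per RefSeq transcript, per the file headers, and TPM divides reads by transcript length, so levels of different genes can be set side by side. Per the submitters' processing notes, mm10 was the build and HOMER 4.9.1, STAR 2.5.3a, Trim Galore 0.4.4 and FastQC 0.11.8 were among the tools. The sources used here give neither their settings nor whether strand was used in counting. TPM times length came out as whole reads, within 0.1 of a whole number for 99.99% of values up to 500 reads. The 13211 genes that reached 1 TPM in 3 or more libraries were tested on log2(TPM + 1) by limma, two-sided, with a variance trend. Benjamini-Hochberg adjustment ran over all of them, at a threshold of 0.05. This was done in R 4.3.3 with limma 3.58.1, and Python 3.11.15 was used for the other steps. The test was tried on simulated data with known changes.

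The ratios used an exact two-sided permutation test, which for 3 against 3 libraries cannot go below 0.1. The members, gene lists and tests were chosen with earlier results of these data known. The genes described singly are the catalytic subunits and activators, the 6 members with the smallest p in each direction, 3 genes per related list with the smallest p, Nr1d1, Foxp3, and the highest and lowest member of each subcomplex; other genes, among them every further member whose groups did not overlap, were chosen after their values were seen. The other settings tried were a pseudocount of 0.1, other filters, rescaling by trimmed means, voom on the recovered reads, no variance trend, array weights, a replicate block, an epithelial covariate and leaving out each library. The labels do not say that a replicate number marks a shared animal, litter or day, so the main test did not use the numbers as pairs. Deviations from the group means had correlations of 0.004, -0.219 and -0.041 between same-numbered libraries. Between libraries of unequal number they were -0.119 to 0.162. With so few libraries a group, these values cannot exclude a pairing. No label ties the libraries to separate animals, so the p-values take in only the spread between these samples, and that may be technical. Promoter sequences are RefSeq's, from GRCm38.p6. In 12 of the 50 members over 10% of the words of 50 bases also occur in transcripts of other genes. One gene of the interferon-gamma list and a motif linked to it are not reported here.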

Additional observations from a re-analysis of the deposited data

How the results depend on the processing

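The median difference of the proteasome members kept its sign under the 15 other settings, from 0.052 without WT 2 to 0.153 without WT 1, and 30 to 42 members had differences above 0. With array weights 225 of the 13211 genes tested were higher and 357 lower. Among them was 1 of the 48 members, Psmb5, which was higher. Leaving out each library gave 0 to 2 genes higher and 0 to 12 lower, with calls only without WT 1 and no member among them. The cause was not tested. With the replicate block no gene passed, and the difference of Psmb5 was 0.409 (limma adjusted p = 0.2894). Rescaling moved the median of all genes to 0.005. Of the 48 members 20 changed sign under at least 1 setting, 10 of them with the epithelial covariate, where Psmd9 was at -0.10 against 0.27 without it, Psmb3 at -0.05 against 0.21 and Psma2 at -0.06 against 0.11. With that covariate Psmb8 was at -0.018, Psmd14 at 0.042 and Psmg2 at 0.164, and with array weights Psme3 was at -0.002. Leaving out single libraries gave -0.069 to 0.15 for Psmb8, -0.144 to 0.076 for Psmb9, -0.019 to 0.108 for Psme1, -0.007 to 0.112 for Psme3, -0.219 to 0.006 for Psmd14 and -0.208 to 0.003 for Psmg2. The 3 ratios kept their sign when libraries were left out and on log2(TPM + 1). With the epithelial covariate, tried after seeing the data, Psmb10 to Psmb7 turned to -0.044, while Psmb8 to Psmb5 was -0.288 and Psmb9 to Psmb6 -0.277. The median of Psmb8, Psmb9 and Psmb10 ran from -0.058 without WT 2 to 0.15 without WT 1. Psmb5 rested on 425 to 869 reads a library.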
